A study of Homo sapiens with 6 samples.

Results

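The genes described here are 10 genes of the microRNA and hairpin silencing machinery. The 10 were chosen by name for their known roles, with earlier results of these data known. All were found by symbol among the 58219 gene identifiers that each count file holds. They are the Argonaute genes AGO1, AGO2, AGO3 and AGO4, the nuclease genes DROSHA and DICER1, the Microprocessor cofactor DGCR8, the export receptor XPO5, and the GW182 genes TNRC6A and TNRC6B. Each symbol matched 1 identifier, and 10 of the 10 were among the 14239 genes with enough reads to test.

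RNA was sequenced from SNU-387, an established human line from a liver cancer that the labels call a pleomorphic hepatocellular carcinoma. The cells stably expressed a short hairpin RNA, either a non-target hairpin (shNT, 3 libraries) or a hairpin against the tyrosine kinase gene YES1 (shYES1, 3 libraries). Both groups therefore carried a hairpin that itself depends on small RNA machinery, and cells without a hairpin were not analysed here. The labels do not say how many hairpins were used, their sequences, or whether the libraries of a group came from separate cultures, so a p-value here rests on variation between libraries that may be only technical.

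A primary microRNA transcript is cut in the nucleus by the Microprocessor, a complex of the nuclease DROSHA and its RNA-binding partner DGCR8. The hairpin that is released leaves the nucleus with exportin 5 (XPO5), is cut by DICER1 to a short duplex, and one strand is loaded into an Argonaute protein. Argonautes bind GW182 proteins, which recruit deadenylases and repressors to the target mRNA. AGO2 is the Argonaute best known for slicing targets that pair fully with the guide, the route by which short hairpin RNAs lower their targets.

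Gene reads per library numbered 12825919 to 16388822 in shNT and 11290889 to 18944148 in shYES1, and the members had 298 to 3551 reads each in a library. The targeted gene was low where the labels place the knockdown: YES1 had 179 ± 1.65 CPM (a gene's reads relative to its library's total, with TMM scaling between libraries) in shNT and 44.1 ± 1.70 in shYES1 (SD, n = 3), a log2 fold change of -2.02. Hepatocyte markers were nearly absent, since ALB, APOA1 and APOB had at most 2 reads in a library and TTR and HNF4A had 0, while SERPINA1 reached 20.6 CPM and FOXA2 1.21. Of the fetal liver and hepatoma markers, AFP had at most 8 reads and GPC3 had 0. Of the epithelial markers, KRT8 stood at 491 to 498 CPM in shNT and 713 to 731 in shYES1 and KRT18 at 272 to 276 and 356 to 358, whereas EPCAM reached at most 1.54 CPM, CDH1 had at most 6 reads and KRT19 at most 2. Mesenchymal FN1 stood at 25000 to 27600 CPM in shNT and 15800 to 16000 in shYES1, VIM at 42.2 to 46.5 and 21.8 to 24.5, and CDH2 at 540 to 546 and 700 to 718. Leukocyte markers CD3E and PTPRC had 0 and at most 14 reads, and CD14 stood at 41.5 to 46.2 CPM in shNT and 36.5 to 39.3 in shYES1. Endothelial PECAM1 stood at 13.5 to 14.5 and 10.4 to 11.6, and VWF at 0.19 to 0.485 and 1.28 to 1.69. Any part of these shifts in the members' values was not tested.

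The members did not move as a block. With edgeR's quasi-likelihood test, 9 of the 10 members had a Benjamini-Hochberg adjusted p under 0.05, DICER1 being the exception. Of all tested genes 65.3% were called the same way, so a called member is nothing unusual in these libraries. By direction, 5 members rose (32.5% of all genes) and 4 fell (32.8% of all genes). For 9 of the 10 members the shNT and shYES1 libraries did not overlap, as for 67.9% of all genes. The members' median log2 fold change was 0.051, against -0.0047 over all tested genes, and their median size of change was 0.33 against 0.30. In bulk RNA, a change in every cell and a change in some of the cells cannot be told apart.

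**Figure D1:**
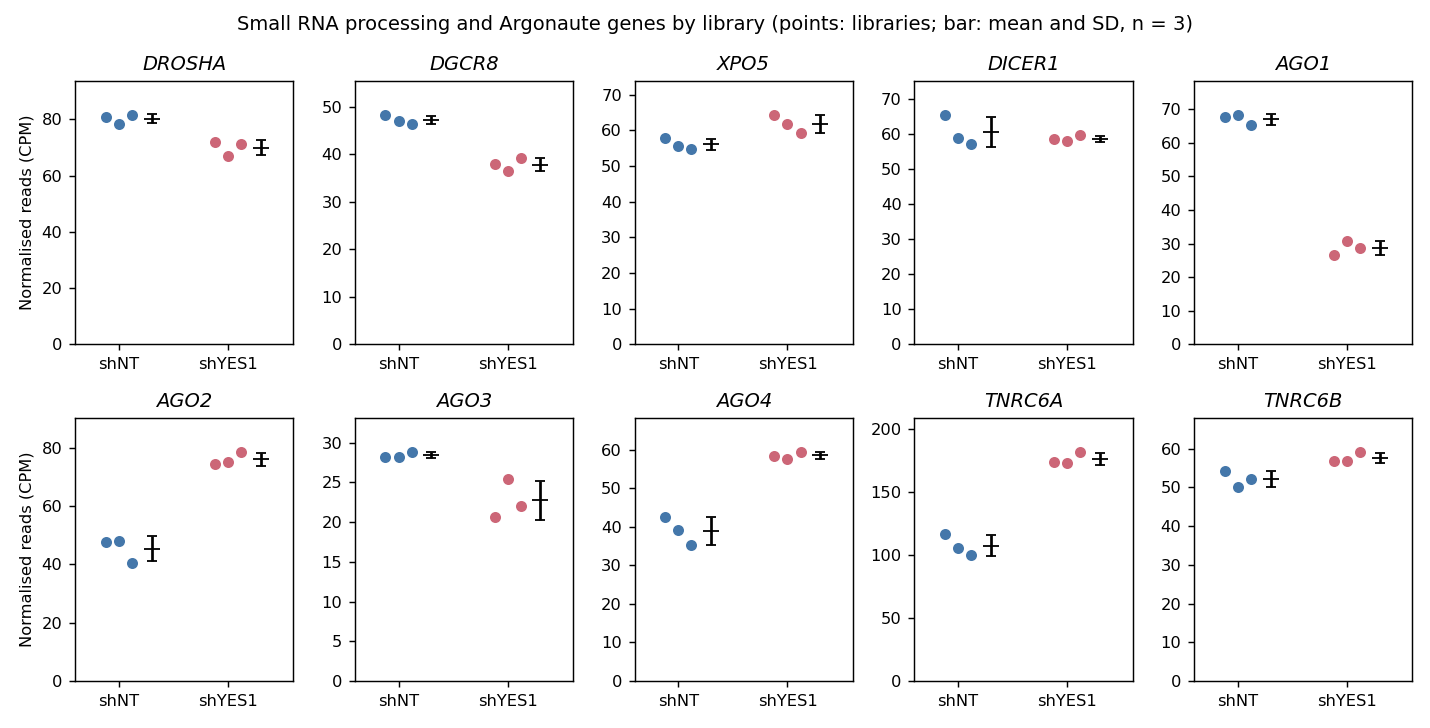
Normalised reads (CPM, vertical axis from 0) of the 10 genes in each of the 3 shNT and 3 shYES1 libraries, with the mean and SD of each group beside the points. AGO1 fell from 67.1 to 28.7 CPM and TNRC6A rose from 107 to 176, while the DICER1 libraries of the groups overlapped.

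In the nucleus, the messages of both Microprocessor subunits were modestly lower in shYES1. DROSHA (ENSG00000113360.16, GRCh38 chromosome 5, 31400497 to 31532196, minus strand), which cuts the base of the primary hairpin, had 80.7, 78.5 and 81.4 CPM in shNT and 71.8, 67.1 and 71.1 in shYES1. The lowest shNT library was above the highest shYES1 library. Its log2 fold change was -0.19 (SE 0.0395, adjusted p 3.68e-05), a 1.14-fold fall. The size depended on the scaling, though the call did not. DROSHA stood at -0.095 (adjusted p 0.0308) with scaling by library size alone. It stood at -0.28 (adjusted p 2.14e-08) when libraries were scaled on genes that lack CCTTTC in their 3' UTRs.

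DGCR8 (ENSG00000128191.15, chromosome 22, 20080232 to 20111877, plus strand), the double-stranded RNA-binding subunit, had 48.2, 47.1 and 46.4 CPM in shNT and 37.9, 36.4 and 39.2 in shYES1. The groups were separate, with means of 47.2 ± 0.893 and 37.8 ± 1.41 CPM. The log2 fold change was -0.31 (SE 0.0499, adjusted p 4.42e-07), a 1.24-fold fall. The log2 CPM of DROSHA minus that of DGCR8, which is not corrected for length and serves only to compare the groups, was 0.76 ± 0.0406 in shNT and 0.88 ± 0.0314 in shYES1. That difference widened by 0.12 and the libraries of the groups did not overlap, but an exact two-sided permutation test of 3 against 3 cannot go below p 0.1, which is the value it gave (adjusted p 0.1 over 5 pairs of members).

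DGCR8 mRNA is itself known to be cut by the Microprocessor at hairpins within its transcript. Exons annotated to DGCR8 overlap the hairpins of MIR3618 (88 bases) and MIR1306 (85 bases) on the same strand, so reads over those bases can be lost as ambiguous. The mature sequences below, from RefSeq on GRCh38, are shown because they are encoded in a member's own message, and the capitals mark the seed (bases 2 to 8). The small RNAs themselves were not measured in these poly(A) libraries.
hsa-miR-3618 (chromosome 22, 20085797 to 20085818, plus strand): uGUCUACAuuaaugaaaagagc
hsa-miR-1306-5p (chromosome 22, 20086072 to 20086093, plus strand): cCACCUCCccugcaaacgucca
hsa-miR-1306-3p (chromosome 22, 20086112 to 20086129, plus strand): aCGUUGGCucugguggug

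The next steps of the pathway changed little. XPO5 (ENSG00000124571.17, chromosome 6, 43522330 to 43576075, minus strand), the receptor that carries precursor hairpins out of the nucleus, had 57.8, 55.6 and 54.8 CPM in shNT and 64.2, 61.7 and 59.3 in shYES1. All shYES1 libraries were above all shNT libraries, by a margin of the same order as the spread within a group. The XPO5 log2 fold change of 0.14 (SE 0.0444, adjusted p 0.00586) is a 1.10-fold rise. The call was lost without shYES1 replicate 1 (0.11, adjusted p 0.056) and when libraries were scaled on genes that lack CCTTTC in their 3' UTRs (0.045, adjusted p 0.382). That scaling lowers the values of genes in general: the median log2 fold change over all tested genes became -0.097. XPO5 shares 348 exonic bases (4.08%) with POLR1C on the opposite strand.

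DICER1 (ENSG00000100697.14, chromosome 14, 95086228 to 95158010, minus strand), the nuclease that cuts precursors and short hairpins to duplexes, had 65.4, 58.95 and 57.3 CPM in shNT and 58.5, 57.997 and 59.7 in shYES1. The groups overlapped, and the shNT libraries spread more widely (SD 4.27) than the shYES1 libraries (SD 0.855). Its log2 fold change was -0.036 with a 95% confidence interval from -0.13 to 0.056 (adjusted p 0.508). The sign depended on the settings: the value was 0.018 without shNT replicate 1 and 0.061 with scaling by library size alone, neither called. DICER1 was a called fall of -0.13 (adjusted p 0.0138) when scaled on genes that lack CCTTTC, the scaling that lowers genes in general.

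The Argonaute genes split into a pair that fell and a pair that rose. AGO1 (ENSG00000092847.11, chromosome 1, 35869808 to 35930528, plus strand), a guide-binding Argonaute that represses through GW182 proteins, had 67.8, 68.2 and 65.2 CPM in shNT and 26.7, 30.6 and 28.8 in shYES1. The gap between the groups was many times the spread within either. Its log2 fold change was -1.23 (SE 0.0507, adjusted p 7.97e-26), a 2.35-fold fall, and the size of that change exceeded that of 94.6% of tested genes. It was the member with the largest change.

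AGO2 (ENSG00000123908.11, chromosome 8, 140520156 to 140635619, minus strand), the slicing Argonaute, moved the other way. It had 47.5, 48.1 and 40.6 CPM in shNT and 74.4, 75.02 and 78.5 in shYES1. The third shNT library was the lowest, and no library of the groups overlapped. The log2 fold change of AGO2 was 0.76 (SE 0.0484, adjusted p 1.31e-18), a 1.69-fold rise.

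AGO3 (ENSG00000126070.19, chromosome 1, 35930718 to 36072500, plus strand) had the fewest reads of the members. Its values were 28.2, 28.2 and 28.8 CPM in shNT and 20.7, 25.5 and 22.02 in shYES1. The shYES1 libraries were all lower but more spread (SD 2.48 against 0.357). The log2 fold change was -0.34 (SE 0.0660, adjusted p 1.38e-05), a 1.27-fold fall.

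AGO4 (ENSG00000134698.10, chromosome 1, 35808172 to 35857890, plus strand) had 42.6, 39.05 and 35.2 CPM in shNT and 58.5, 57.7 and 59.4 in shYES1. The shYES1 libraries were close together and all above shNT. For AGO4 the log2 fold change was 0.60 (SE 0.0515, adjusted p 2.83e-14), a 1.51-fold rise.

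AGO4, AGO1 and AGO3 lie next to each other in that order on the plus strand of chromosome 1. The annotated end of AGO4 is 11918 bases before the start of AGO1, and the end of AGO1 is 190 bases before the start of AGO3. These neighbours therefore did not change alike: the first rose 1.51-fold, the second fell 2.35-fold and the third fell 1.27-fold. AGO1 and AGO3 exons overlap different noncoding genes on the opposite strand (396 and 86 bases). The counts used are stranded, and unstranded counts gave -1.23 for AGO1 and -0.35 for AGO3. AGO2 exons share 47 bases (0.3%) with the transcript AC067931.1 on the same strand, so the AGO2 value carries that uncertainty.

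**Figure D2:**
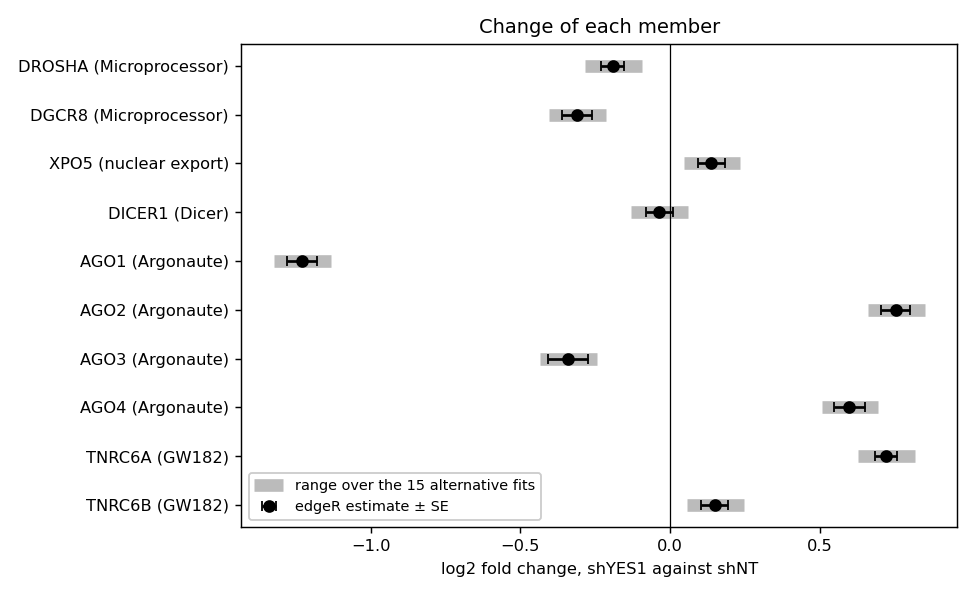
Log2 fold change of shYES1 against shNT (horizontal axis) for each gene in pathway order, with points for the edgeR estimate, bars for its SE and grey bands for the range over 15 alternative fits. AGO1 at -1.23 and AGO2 at 0.76 lie at the ends, and the bands of DICER1 reach both sides of 0.

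The balance of AGO2 to AGO1 shifted toward AGO2. The log2 CPM of AGO2 minus that of AGO1 was -0.51, -0.50 and -0.68 in the shNT libraries and 1.46, 1.28 and 1.43 in the shYES1 libraries. The groups were far apart, with a shift of 1.95. These values are not corrected for length, so their sign does not rank the genes. AGO2 also gained on AGO3, by 1.06, and on AGO4, by 0.16, with no overlap between groups for either. Each of these exact two-sided permutation tests gave p 0.1 (adjusted p 0.1 over the 5 pairs), the smallest that 3 against 3 allows. These differences are taken within a library, so library scaling cancels out of them apart from the pseudocount of 0.5 CPM.

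To set levels of the paralogs beside each other, CPM was divided by gene length, as RPKM (reads per kilobase of merged exons, from CPM). AGO4 held the largest share of the summed Argonaute RPKM, with 38.9%, 36.7% and 36.0% in shNT and 51.5%, 49.3% and 50.3% in shYES1. AGO1 went from 33.6% ± 1.24 to 12.9% ± 0.732, a drop of -20.67 percentage points. AGO2 went from 19.9% ± 0.860 to 30.0% ± 0.528, and AGO3 from 9.35% ± 0.675 to 6.72% ± 0.676. None of these 4 shares overlapped between groups (exact two-sided permutation p 0.1 and adjusted p 0.1 for each).

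The summed Argonaute level changed far less than its makeup. In RPKM the sum was 14.4 ± 0.834 in shNT and 15.99 ± 0.311 in shYES1 (ratio 1.11, exact permutation p 0.1), and in CPM it was 179.8 ± 8.76 and 185.9 ± 4.92 (ratio 1.03, exact permutation p 0.5). The CPM sums of the groups overlapped, whereas the RPKM sums did not (13.47 to 15.07 in shNT and 15.65 to 16.25 in shYES1). The rank of the paralogs rested on the length used: merged exons measure 13886 bases for AGO1, 15833 for AGO2, 21157 for AGO3 and 7267 for AGO4, whereas the median coding transcripts measure 8852, 3141, 2468.5 and 7116. With the latter, a choice made after the data were seen, AGO2 had the highest level in both groups (14.45 in shNT and 24.19 in shYES1) and AGO4 the lowest in shNT (5.47). The direction of each share was the same with either length and with no length at all.

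**Figure D3:**
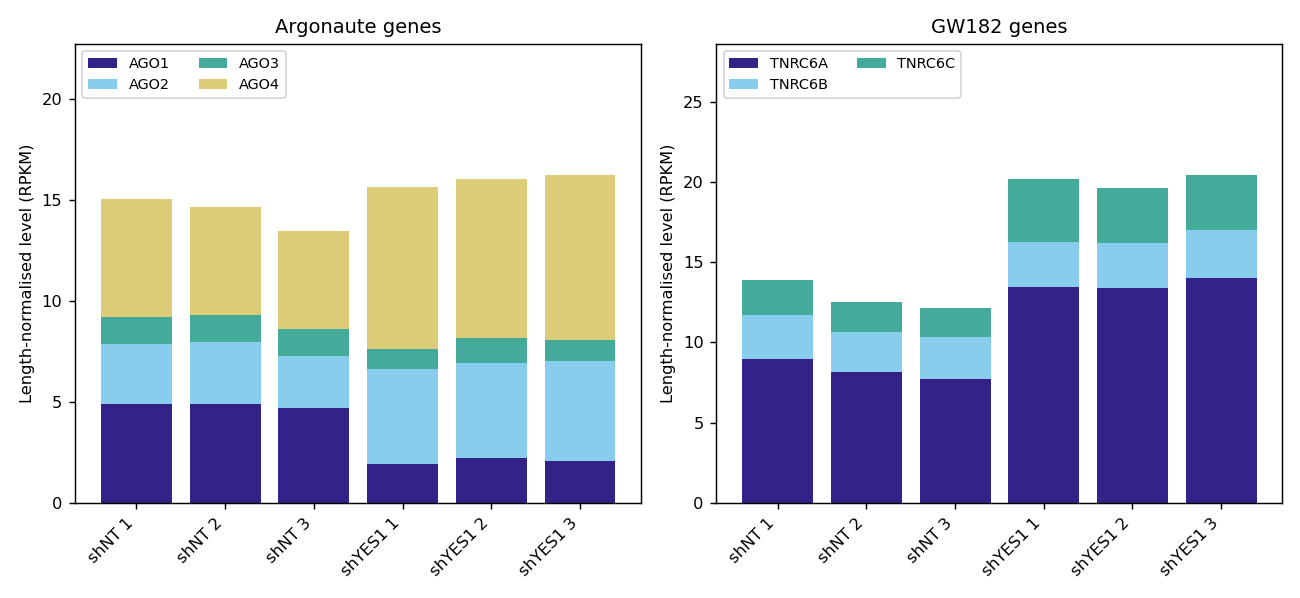
Stacked bars of length-normalised level (RPKM by merged exon length, vertical axis from 0) in each library for the 4 Argonaute genes (left) and the 3 GW182 genes (right). The Argonaute total stands at 13.47 to 15.07 in shNT and 15.65 to 16.25 in shYES1, while the AGO1 part shrinks in shYES1. The GW182 total goes from 12.1 to 13.9 in shNT to 19.7 to 20.5 in shYES1.

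The GW182 genes, whose proteins link Argonautes to the deadenylases, rose. TNRC6A (ENSG00000090905.18, chromosome 16, 24610209 to 24827632, plus strand) had 116, 106 and 99.9 CPM in shNT and 174, 173 and 181 in shYES1. It had the most reads of the members, and its groups lay far apart. TNRC6A had a log2 fold change of 0.72 (SE 0.0371, adjusted p 4.41e-21), a 1.65-fold rise.

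TNRC6B (ENSG00000100354.20, chromosome 22, 40044817 to 40335808, plus strand) had 54.3, 50.02 and 52.1 CPM in shNT and 56.9, 56.97 and 59.2 in shYES1. The groups did not overlap, but the step between the highest shNT and the lowest shYES1 library was smaller than the range within shNT. Its log2 fold change was 0.15 (SE 0.0452, adjusted p 0.00352), a 1.11-fold rise. TNRC6B was not called (0.057, adjusted p 0.279) when libraries were scaled on genes that lack CCTTTC, the scaling that lowers genes in general.

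The third paralog, TNRC6C, is outside the list of 10. It went from 21.6 ± 2.56 to 40.2 ± 3.21 CPM, a log2 fold change of 0.91 (SE 0.0669, adjusted p 3.16e-16), so the 3 paralogs rose to different extents. Within libraries TNRC6A gained on TNRC6B by 0.57 on the log2 CPM scale (exact two-sided permutation p 0.1, adjusted p 0.1). The share of TNRC6B in the summed GW182 RPKM went from 20.3% ± 1.04 to 14.3% ± 0.241, while TNRC6A went from 64.6% ± 0.742 to 67.7% ± 1.14 and TNRC6C from 15.1% ± 0.659 to 18.0% ± 1.38. The sum itself was 12.85 ± 0.946 RPKM in shNT and 20.12 ± 0.402 in shYES1, a ratio of 1.57 (exact permutation p 0.1).

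Set in order of RPKM by merged exon length, DROSHA led in shNT (10.3 ± 0.198), followed by TNRC6A (8.30 ± 0.642), and AGO3 was last (1.34 ± 0.0169). XPO5 and DGCR8 overlapped in shNT, as did AGO4, DICER1 and AGO1, and as did AGO2 and TNRC6B. In shYES1 TNRC6A led (13.6 ± 0.365), DROSHA came next (8.99 ± 0.327) and then AGO4 (8.05 ± 0.121), with AGO1 (2.07 ± 0.143) and AGO3 (1.07 ± 0.117) at the end. AGO2 and DICER1 were the neighbours in that order whose shYES1 libraries overlapped. By median coding transcript length the order differs: AGO3, at 11.51 in shNT, then stands above AGO1 (7.58), AGO4 (5.47) and TNRC6B (5.04).

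The 3' UTRs of the members were searched on the transcript strand for CCTTTC. An earlier scan of these data had picked that sequence for its link to lower expression, so its frequency here is a description. CCTTTC occurs in an annotated 3' UTR of 5756 of 11920 tested genes (48.3%). Their median log2 fold change was -0.077 against 0.095 for genes without it, a difference built in by the way the sequence was picked. Among the members 8 of 10 hold it, and of those 4 were called higher and 3 lower (32.5% and 32.8% of all tested genes). A long 3' UTR has more room for a match, and length was not matched between the members and all genes. The 8 of 10 is therefore not a sign of enrichment. Which annotated 3' UTRs these cells use was not measured. In the longest annotated 3' UTR, AGO3 has 8 matches in 16755 bases, TNRC6B 7 in 12567, AGO1 6 in 10921 and AGO2 3 in 11888. AGO4, DICER1, DGCR8 and XPO5 have 1 match each, and DROSHA (935 bases), TNRC6A (2420 bases) and the paralog TNRC6C (3990 bases) have 0. Per kilobase of that UTR, called members that fell had 0.549 (AGO1), 0.477 (AGO3), 0.566 (DGCR8) and 0 (DROSHA) matches. Those that rose had 0.252 (AGO2), 0.233 (AGO4), 0.65 (XPO5), 0.557 (TNRC6B) and 0 (TNRC6A). The part of these matches in the changes was not tested.

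The AGO1 matches are printed with 12 bases on either side because AGO1 changed the most, and the single AGO4 match because AGO4 is its neighbour and rose. Sequences are on the plus strand of GRCh38 and capitals mark the match.
AGO1, chr1:35920414-35920443: caaccttttgtaCCTTTCtttggggaatgg
AGO1, chr1:35920644-35920673: acaggcccctggCCTTTCcacttatgcctc
AGO1, chr1:35922544-35922573: tttgcctggcttCCTTTCccttttcttcta
AGO1, chr1:35925205-35925234: ctgtgtgttttaCCTTTCtactccccatct
AGO1, chr1:35926978-35927007: aatattgagggaCCTTTCtagggagccttt
AGO1, chr1:35929251-35929280: acaaatcatgagCCTTTCacatgcattgac
AGO4, chr1:35854968-35854997: ggagatgggattCCTTTCttgtccaaacaa

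The partners of the members were followed through lists of the pathway, each read against the 65.3% of all genes that were called. Of 14 Microprocessor cofactors, 4 rose, 8 fell and 2 were not called, with a median log2 fold change of -0.10. NCBP1, a subunit of the nuclear cap-binding complex, went from 90.6 ± 0.737 to 63.0 ± 0.991 CPM (-0.52). SAFB2, a scaffold attachment factor that aids DROSHA, went from 59.2 to 69.7 CPM (0.24). All 4 tested nuclear export partners were called lower (median -0.24, and 3 of 4 with scaling by library size alone), among them XPO1, the general export receptor, at -0.28 and RAN, the GTPase that drives export, at -0.28, whereas XPO5 rose.

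Of 14 Dicer partners and Argonaute loading chaperones, 7 rose, 3 fell and 4 were not called (median 0.11). FKBP4, a co-chaperone of HSP90, rose from 54.5 ± 2.03 to 75.5 ± 1.19 CPM (0.46) and HSPA8, the constitutive HSP70, from 866 to 1160 (0.42). HSPA8 exons overlap the small nucleolar RNAs SNORD14C and SNORD14D on the same strand. TSN, or translin, which helps clear the discarded strand of a duplex, fell from 99.4 ± 1.03 to 50.4 ± 1.71 (-0.99), and FKBP5 fell from 22.9 to 17.4 (-0.40). TSNAX, from the same list and named here after its value was seen, was called higher at 0.28. TSNAX exons overlap TSNAX-DISC1 on the same strand. The partner of DICER1 that is best known for loading, TARBP2, had 21.1 ± 0.570 and 22.9 ± 0.562 CPM, a log2 fold change of 0.12 with a 95% interval from -0.015 to 0.25 (adjusted p 0.113).

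Downstream of the GW182 proteins, 8 of 29 genes of deadenylation, decapping and translational repression rose, TNRC6C included, 12 fell and 9 were not called (median -0.070). CNOT7, a catalytic deadenylase, fell from 76.2 ± 1.11 to 28.7 ± 0.678 CPM (-1.41) and CNOT1, the scaffold of the same complex, from 216 ± 5.48 to 126 ± 3.28 (-0.77). EIF4E2, a cap-binding translational repressor, rose from 96.5 to 127 (0.40). CNOT8, the close paralog of CNOT7 and named here after its value was seen, was called higher at 0.22.

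Among 17 tested Argonaute-associated factors of 19 listed, 8 rose, 5 fell and 4 were not called (median 0.037). P4HA1 and P4HB, subunits of the collagen prolyl hydroxylase that also modifies AGO2, fell from 379 ± 12.6 to 77.7 ± 0.845 CPM (-2.29) and from 2710 ± 65.3 to 1861 ± 23.0 (-0.54). FXR2, an RNA-binding relative of FMR1, rose from 38.5 to 57.6 (0.59), and PPP6C, the catalytic subunit of a phosphatase that acts on AGO2, from 54.4 to 69.4 (0.35). Of 9 tested tailing, trimming and turnover genes, 3 rose, 5 fell and 1 was not called (median -0.20). The nucleases XRN2 (237 to 131 CPM, -0.85) and PARN (44.1 to 30.7, -0.52) fell, and DIS3L2, which degrades uridylated precursors, rose from 22.9 to 31.5 (0.46), as did the editing enzyme ADARB1 from 125 to 151 (0.28). DIS3L2 overlaps a pseudogene on the same strand. LIN28B had 0 reads and LIN28A at most 1.

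PIWI genes, the germline relatives of the Argonautes, were scarcely expressed. Of 9 listed genes 3 could be tested, of which 1 rose, 1 fell and 1 was not called. PIWIL1 and PIWIL3 had 0 reads in every library and PIWIL2 at most 14. PIWIL4, the tested gene that was not called, had at most 16 reads (-0.39, adjusted p 0.374). PIWIL4 exons share 683 bases with FUT4 on the same strand. The riser, PLD6, named after its value was seen, stood at 0.44 (adjusted p 0.0427) and was not called without shYES1 replicate 1 or without shYES1 replicate 3. PLD6 exons share 450 bases (17.58%) with AC055811.2 on the same strand. TDRKH, a Tudor domain protein, fell from 10.2 ± 0.204 to 7.89 ± 0.385 CPM (-0.37).

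**Figure D4:**
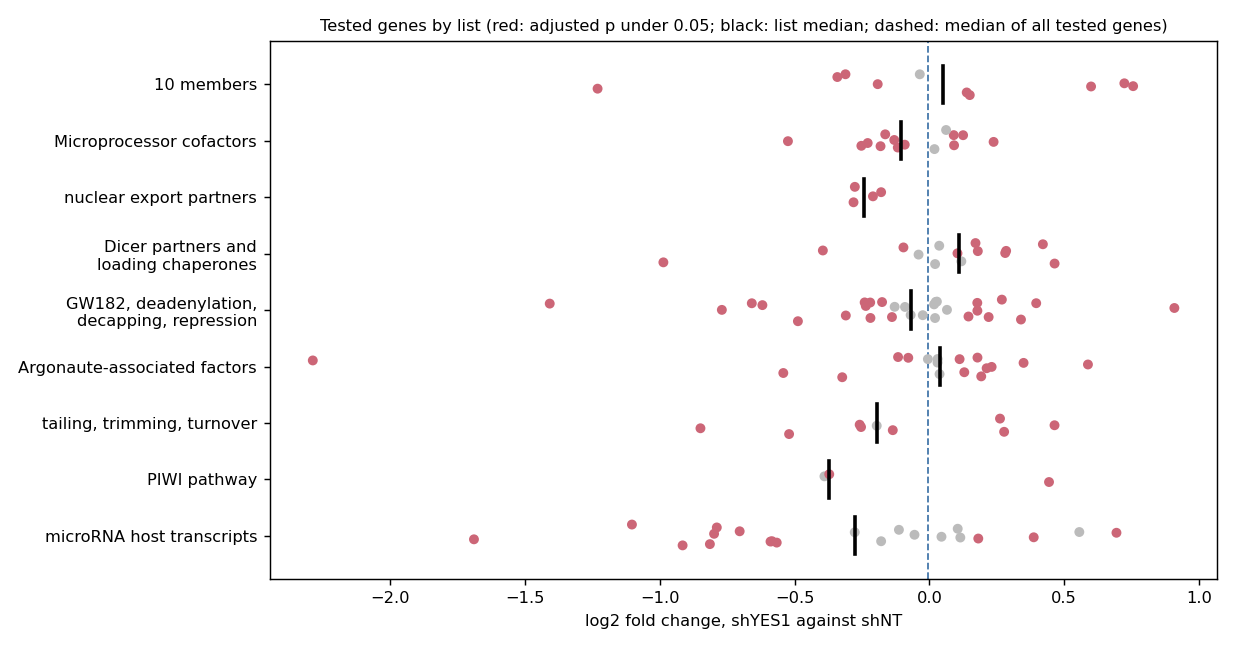
Log2 fold change (horizontal axis) of each tested gene of the 10 members and of 8 lists of the pathway, with called genes in red, uncalled in grey, list medians as black bars and the median of all tested genes as a dashed line. Members run from -1.23 to 0.76, and P4HA1 at -2.29 is the lowest point of any list.

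The substrates of the pathway were visible only as host transcripts, the longer RNAs that contain microRNA hairpins. Of 32 listed hosts 21 could be tested: 3 rose, 10 fell and 8 were not called (median -0.28). MIR210HG fell from 16.8 ± 1.26 to 5.19 ± 1.08 CPM (-1.69) and MIR3142HG, the host of miR-146a, from 69.5 ± 0.993 to 37.0 ± 0.950 (-0.92). MIR22HG rose from 34.0 ± 1.92 to 44.2 ± 2.34 (0.39), and SREBF2, a sterol regulator gene with miR-33a in an intron, from 356.5 ± 7.10 to 404 ± 4.72 (0.18). A host message in poly(A) RNA is not the level of its mature microRNA, which was not measured.

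One mature arm per host is given for these 4 hosts, the arm best known as the guide, with the seed in capitals, from RefSeq on GRCh38, because these are the hosts that the naming rule picks.
hsa-miR-210-3p (host MIR210HG, fell; chromosome 11, 568112 to 568133, minus strand): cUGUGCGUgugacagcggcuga
hsa-miR-146a-5p (host MIR3142HG, fell; chromosome 5, 160485372 to 160485393, plus strand): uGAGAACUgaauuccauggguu
hsa-miR-22-3p (host MIR22HG, rose; chromosome 17, 1713914 to 1713935, minus strand): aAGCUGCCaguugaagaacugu
hsa-miR-33a-5p (host SREBF2, rose; chromosome 22, 41900949 to 41900969, plus strand): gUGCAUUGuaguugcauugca

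No seed is shared among those 4 sequences. Some hosts named after their values were seen carry microRNAs with a common seed, and they did not all move alike. DLEU2 and SMC4, which fell at -0.70 and -0.80, both encode miR-16-5p, and miR-15a-5p of DLEU2 and miR-15b-5p of SMC4 have the same seed. MCM7, which fell at -0.81, and MIR17HG, at -0.28 and not called (adjusted p 0.357), share another. MIR100HG and MIR99AHG went opposite ways, at -0.79 (adjusted p 2.71e-08) and 0.69 (adjusted p 0.0279), although both encode miR-125b-5p, and miR-100-5p and let-7a-5p of the former share their seeds with miR-99a-5p and let-7c-5p of the latter. MIR99AHG was low, at 0.958 ± 0.292 and 1.51 ± 0.281 CPM, and its groups overlapped. A further host of let-7a-5p, MIRLET7BHG, stood at 0.10 and was not called (adjusted p 0.687).
hsa-miR-16-5p (hosts DLEU2 and SMC4): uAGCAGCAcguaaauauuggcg
hsa-miR-15a-5p (host DLEU2): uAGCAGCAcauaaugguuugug
hsa-miR-15b-5p (host SMC4): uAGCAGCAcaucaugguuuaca
hsa-miR-93-5p (host MCM7): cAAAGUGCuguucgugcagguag
hsa-miR-17-5p (host MIR17HG): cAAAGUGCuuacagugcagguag
hsa-miR-125b-5p (hosts MIR100HG and MIR99AHG): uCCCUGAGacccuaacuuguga
hsa-miR-100-5p (host MIR100HG): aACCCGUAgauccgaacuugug
hsa-miR-99a-5p (host MIR99AHG): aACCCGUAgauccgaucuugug
hsa-let-7a-5p (host MIR100HG): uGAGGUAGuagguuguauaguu
hsa-let-7c-5p (host MIR99AHG): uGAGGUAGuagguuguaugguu
SMC4 and MCM7 are protein genes of chromosome condensation and DNA replication, so the direction of such a host also belongs to the protein gene. DLEU2 exons overlap 13 bases of the MIR15A hairpin, and the exons of MIR17HG, MIR22HG and MIR3142HG overlap their own hairpins, on the same strand in each case. MIR100HG exons share bases with BLID and AP000755.1, also on the same strand.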

How the data were processed

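Poly(A) RNA of 6 SNU-387 libraries was prepared with a stranded kit, per the labels' protocols. The authors deposited read counts per gene with no normalization. The submitters' processing notes name CASAVA 1.8.2, Trimmomatic 0.35, STAR 2.5.1b and GRCh38. The reverse-strand column was used, since only 6.03% to 6.55% of stranded gene reads fell on the forward column. Entries that name no gene held 19.8% to 20.3% of its reads and were left out. Of 58219 identifiers, 57437 matched a symbol and 57881 are in GENCODE release 29, the source of coordinates, exon lengths and 3' UTRs. A read that maps to several places is counted for no gene.

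In R 4.3.3, edgeR 4.0.16 (filterByExpr with minimum count 10 and minimum total 15, TMM, robust quasi-likelihood test) compared shYES1 with shNT over 14239 genes, and genes with a Benjamini-Hochberg adjusted p under 0.05 were called. The TMM factors were 0.965 to 0.970 in shNT and 1.03 to 1.04 in shYES1. The script was tested on simulated data in which far fewer genes changed than were called here. That test therefore does not cover the scaling of libraries where most genes change. The biological coefficient of variation was 2.10%. CPM and RPKM were computed from the deposited counts, and values are mean ± SD with n = 3 libraries. Standard errors were derived from the F statistic and are approximate. Pairs of members were compared on log2(CPM + 0.5). Alternatives were other scalings, DESeq2 1.42.0, limma-voom (limma 3.58.1), other low-count filters, unstranded counts, a replicate block and leaving out each library.

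The members and lists were chosen with earlier results of these data known. TNRC6C and TARBP2 are named besides the members. From each list the naming rule takes the 2 strongest risers and the 2 strongest fallers (fewer where a list has fewer) that were called, averaged 5 CPM or more over the 6 libraries and did not overlap between groups. Not every gene that the rule picks is reported here.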

Additional observations from a re-analysis of the deposited data

Results flagged for a closer look

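The forward-strand column, which no comparison uses, held 1.55% of the stranded reads of TNRC6A in shYES1 and 1.17% in shNT, on average over 3 libraries each. The 3 shYES1 libraries (1.45%, 1.37% and 1.83%) were above the 3 shNT libraries (1.17%, 1.20% and 1.13%). These shares rest on few forward reads, 42, 28 and 66 in shYES1 and 17, 17 and 18 in shNT. The share was computed for every member, and TNRC6A was the only member whose groups did not overlap. A separation found by looking through all members can arise by chance, and no test allowed for that choice. Over all genes the forward share was 6.03% to 6.55%, higher than at TNRC6A in every library.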

How the results depend on the processing

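Each member was refitted under 15 alternatives, and 144 of the 150 fits kept the direction and the side of the threshold of the reported value. The exceptions concern genes with small changes. With libraries scaled on genes that lack CCTTTC, XPO5 stood at 0.045 (adjusted p 0.382), TNRC6B at 0.057 (adjusted p 0.279) and DICER1 at -0.13 (adjusted p 0.0138, now called), and 3 members were called higher instead of 5. CCTTTC was picked from these data for its link to lower expression, so a downward shift under this scaling was built in. The median log2 fold change over all tested genes was -0.097 with it and -0.0047 in the reported fit. Under library size alone, DICER1 stood at 0.061 (adjusted p 0.243). Leaving out 1 library at a time gave -0.078 to 0.018 for DICER1, above 0 without shNT replicate 1, and 0.11 to 0.17 for XPO5. Over these fits 4 to 5 members were called higher and 4 lower. With CCTTTC-free scaling, 1 Microprocessor cofactor, 5 genes of the GW182 and deadenylation list and 0 PIWI genes were called higher, and 5 Dicer partners and chaperones lower. That scaling also called 16 genes of the GW182 and deadenylation list lower, against 12 in the reported fit. With library size alone, 5 Microprocessor cofactors and 3 Argonaute-associated factors were called lower. More were then called higher: 12 Argonaute-associated factors instead of 8 and 10 Dicer partners and chaperones instead of 7. The GW182 and deadenylation list had 11 instead of 8 and the Microprocessor cofactors 6 instead of 4. The only PIWI gene called higher, PLD6, was lost (0 called) with unstranded counts, DESeq2 and limma-voom, and the count was 0 to 1 when libraries were left out. In every alternative run for the paralog shares and the member pairs, the direction was that reported.

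Over all genes, edgeR called 4623 higher and 4676 lower, against 5799 and 3762 with library size alone, 3553 and 5717 with CCTTTC-free scaling, and 3946 and 4007 with DESeq2. With the sample number as a replicate block, 5 members were called higher and 4 lower and AGO1 stood at -1.23, so no member changed its call. Same-numbered libraries hardly deviated together (r 0.012, 0.025 and 0.012 across genes), which gave no sign that the numbers pair the libraries. It cannot exclude a pairing, since a shared effect small beside the noise between replicates would not show. AGO3, with 298 reads in its shallowest library, has the widest standard error of the members.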
